A study of Caenorhabditis elegans with 6 samples.

Results

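The proteasome subunit genes of Caenorhabditis elegans are described here by how much RNA they gave in whole L4 animals. The genes were taken by name: every row of the deposited gene table whose symbol starts with pas-, pbs-, rpt- or rpn- and a number. This gave 33 of the 31180 genes in the table, 14 of the 20S core particle and 19 of the 19S cap. RNA was sequenced from 3 libraries of HS animals, which spent 4 h at 35°C, and from 3 libraries of CTRL animals, which stayed at 20°C. All 6 came from the wild-type strain N2 Bristol, fed OP50 bacteria, and the RNA was that of the whole organism, so a level is a mean over all of its cells. The animals carried no transgene or deletion according to the labels.

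The value used for each gene is the authors' mean over all 6 libraries of its normalized read count, that is, the count divided by a size factor for the depth of its library. HS and CTRL libraries enter that mean alike. No value of a single library was used here, so the levels below say nothing of a change under HS, carry no spread between replicates and were not tested. For comparison between genes, the mean was divided by the length of the union of a gene's annotated exons. The result, the mean normalized count per kb of exon, is termed the level. Brackets after a level give its exact 95% Poisson interval, computed from the fewest reads that the mean allows. The interval covers counting error only, and reads from one amplified fragment are not independent molecules. Brackets after a ratio of levels divide opposite ends of their separate intervals, and are not a 95% interval of the ratio.

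The proteasome is the protease complex that degrades most short-lived and damaged proteins of the cytosol and nucleus. Its 20S core is a barrel with an outer alpha ring at each end and inner beta rings that hold the catalytic sites, and its 19S cap recognizes proteins tagged with ubiquitin, unfolds them in a ring of ATPases and feeds them through the alpha ring. The alpha subunits are encoded by pas genes, the beta subunits by pbs genes, the ATPases of the cap by rpt genes and the other cap subunits by rpn genes. In C. elegans, as in other animals, most subunits have 1 gene each. The pair rpn-6.1 and rpn-6.2 shares 1 subunit number.

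The proteasome genes were abundant, and apart from rpn-6.2 they lay close together. The median level of the 33 genes was 2130, against 119.3 for the 17574 protein-coding genes with a mean normalized count of at least 1, a ratio of 17.9. That median exceeded 95.1% of the protein-coding genes, and all 33 genes lay above the protein-coding median. The interquartile range of the list ran from 1806 to 2582, a ratio of 1.43. Over all 33 genes the highest level was 9.55 times the lowest, and their log2 levels had an SD of 0.57 across genes. Without rpn-6.2, the other 32 genes lay between 1440 for rpn-13 and 3724 for pas-5, a ratio of 2.59, and the SD was 0.37. Over the protein-coding genes that SD was 3.07. Per kb of coding sequence the ends of the range of the 32 genes were other genes, rpn-1 at 1650 and pas-3 at 4308. Together the 33 genes took 0.586% of the summed mean counts of all protein-coding genes.

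**Figure D1:**
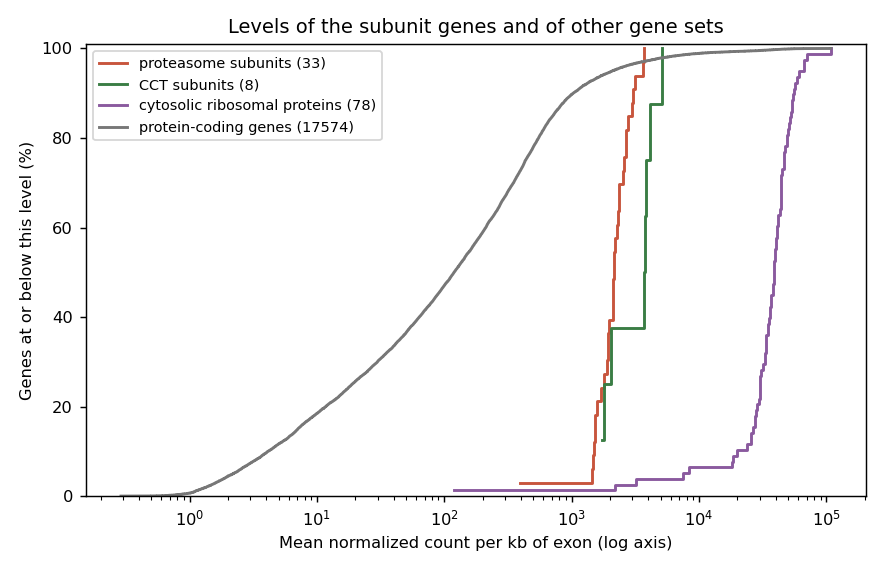
Cumulative share of genes (y axis, %) at or below a level (x axis, mean normalized count per kb of exon, log axis) for the 33 proteasome subunits, 8 CCT subunits, 78 cytosolic ribosomal protein genes and 17574 protein-coding genes. The proteasome curve rises between 1440 and 3724 except for rpn-6.2 at 389.9, right of most protein-coding genes and left of nearly all ribosomal protein genes.

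The counts behind these levels were large. The mean of a subunit gene rests on at least 1951 reads (rpn-6.2) to at least 22365 reads (rpn-2) summed over the 6 libraries. The counting error of a level was therefore 1.32% to 4.54%, and at most 2.67% without rpn-6.2. With the genes put in order of level, 23 of the 32 neighbouring pairs had overlapping intervals. These intervals use the fewest reads that the mean allows, and an overlap does not show that the levels are the same. The order within a pair was not tested. The gaps between neighbours came after pas-3, pbs-4, pbs-1, rpn-2, pbs-6, rpn-9, rpn-7, rpn-10 and rpn-13.

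The alpha ring, which gates the entrance of the core, had 2 genes well above the other 5. pas-5 (WBGene00003926, chromosome I, 10566350 to 10567300, plus strand, WBcel235) had a mean normalized count of 3184 over 855 bp of exon and the highest level of all 33 genes, 3724 (3652 to 3797). pas-3, whose yeast counterpart carries the tail that closes the gate, followed at 3618 (3549 to 3689), and these intervals overlapped. The next alpha genes were pas-7 at 2656 and pas-2 at 2582, and then came pas-6 at 2130 and pas-4 at 1949. pas-1 (WBGene00003922, chromosome V, 14421566 to 14422618, minus strand) was lowest in the ring, with a mean count of 1821 and a level of 1925 (1876 to 1975). The highest level of the ring was 1.93 times the lowest, and its median was 2582.

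The 7 genes of the beta ring lay within a ratio of 1.41, with a median of 2372 and an SD of 0.20 on the log2 scale. Per kb of coding sequence the ratio was 1.64. pbs-4 (WBGene00003950, chromosome I, 3908747 to 3909701, plus strand) was highest, with a mean count of 2369 and a level of 2958 (2892 to 3025), and pbs-7 stood at 2746. pbs-6 (WBGene00003952, chromosome III, 8243122 to 8244092, minus strand) was lowest, with a mean count of 1843 and a level of 2099 (2046 to 2153), close to pbs-3 at 2114.

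The 3 genes of the catalytic beta subunits lay within a ratio of 1.20. pbs-1 (WBGene00003947, chromosome IV, 1708814 to 1709745, minus strand), which encodes the caspase-like site, had a mean count of 2076 and a level of 2526 (2466 to 2587). pbs-5 (WBGene00003951, chromosome I, 14719167 to 14720477, minus strand), which encodes the chymotrypsin-like site, had a mean count of 2512 and a level of 2372 (2321 to 2425). pbs-2 (WBGene00003948, chromosome I, 12967216 to 12968280, minus strand), which encodes the trypsin-like site, had a mean count of 2116 and a level of 2102 (2052 to 2152). The intervals of these 3 genes did not overlap each other, and all 3 lay within the range of the non-catalytic beta genes. Per kb of coding sequence, pbs-5 stood at 2949, pbs-1 at 2860 and pbs-2 at 2547. The order of pbs-1 and pbs-5 thus depended on the length used.

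The ATPase ring of the base, whose 6 subunits pull the substrate into the core, had a median of 2086. rpt-2 (WBGene00004502, chromosome V, 6016059 to 6017669, minus strand) was highest, with a mean count of 3920 and a level of 2659 (2613 to 2706). rpt-4 at 2348 and rpt-3 at 2253 followed, then rpt-1 at 1919. rpt-5 at 1536 and rpt-6 (WBGene00004506, chromosome III, 12370456 to 12372607, plus strand) at 1470 (1435 to 1506) were lowest and had overlapping intervals. The mean count of rpt-6 was 2067, and the ratio of the highest to the lowest gene of the ring was 1.81.

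The other subunits of the base are scaffolds and ubiquitin receptors, and their median level was 1616. rpn-2 (WBGene00004459, chromosome III, 6199184 to 6202594, plus strand), the large scaffold on which the receptor RPN-13 docks, had the highest mean count of all 33 genes, 6960, but over 3166 bp of exon, which put its level at 2198 (2170 to 2227). The other large scaffold, rpn-1, had a mean count of 4856 over 3171 bp of exon and a level of 1531. The receptor genes stood at 1700 for rpn-10 and at 1440 (1407 to 1475) for rpn-13 (WBGene00016981, chromosome III, 6340113 to 6341928, minus strand), which had a mean count of 2152. The highest of these 4 genes was 1.53 times the lowest.

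The lid, which holds the deubiquitinating enzyme RPN-11, had a highest level 7.99 times its lowest, and this rested on rpn-6.2. Without rpn-6.2 the ratio was 2.07 and the median was 2008. rpn-3 (WBGene00004460, chromosome III, 8447353 to 8449346, plus strand), a structural lid subunit, was highest, with a mean count of 5785 and a level of 3117 (3072 to 3162). rpn-8, the partner of RPN-11, stood at 3031 (2977 to 3086), and these intervals overlapped. rpn-12 at 2330, rpn-5 at 2130, rpn-9 at 1886 and rpn-7 at 1806 followed. rpn-11 itself (WBGene00004467, chromosome II, 4043055 to 4044546, minus strand) was second lowest in the lid at 1506, with a mean count of 1860. Its level was 0.497 times that of its partner rpn-8. Per kb of coding sequence, rpn-11 stood at 1987 and rpn-8 at 3444, so this ratio depended on the length used.

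**Figure D2:**
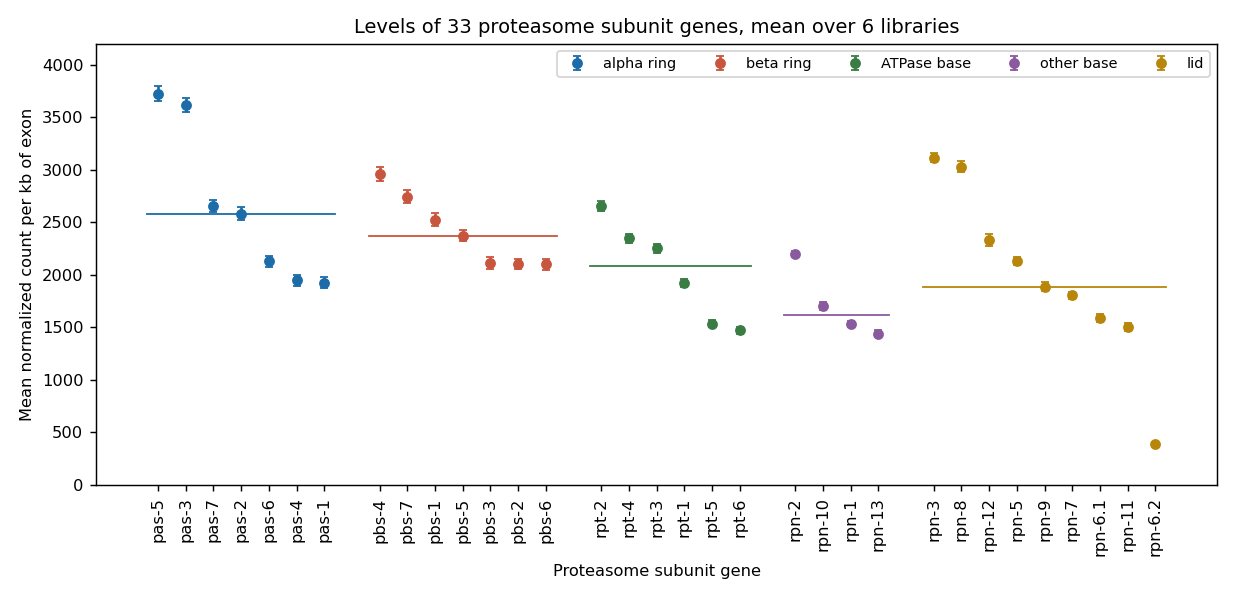
Level of each of the 33 subunit genes (y axis, mean normalized count per kb of exon; points, with exact 95% Poisson intervals as bars), ordered by level within each sub-complex along the x axis; the horizontal lines are the medians. The alpha ring's pas-5 and pas-3 (3724 and 3618) lie above the other genes, and rpn-6.2 at 389.9 is the only gene below 1440.

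The 2 genes that share a subunit number differed in level. rpn-6.1 (WBGene00004462, chromosome III, 6959110 to 6962001, minus strand) had a mean count of 2615 over 1646 bp of exon and a level of 1589 (1555 to 1623), inside the range of the other lid genes. This gene is known in C. elegans as a lid subunit whose raised expression protects against proteotoxic stress. rpn-6.2 (WBGene00010309, chromosome III, 8999817 to 9001999, minus strand) had a mean count of 607 over 1557 bp and a level of 389.9 (372.8 to 407.6). rpn-6.1 was thus 4.07-fold higher (3.81 to 4.35), and 4.09-fold higher per kb of coding sequence. rpn-6.2 lay 3.69-fold below the next lowest subunit, rpn-13, yet still above 72.5% of the protein-coding genes. How reads that match both genes were counted is not given in the sources used here, so the split between them is uncertain. The median level of the 33 genes, and their ratios to other complexes, were the same to 3 digits without rpn-6.2.

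The 20S core genes were shorter than most of the 19S cap genes. Core genes had 801 to 1059 bp of exon, and the longest cap gene, rpn-1, had 3171 bp. The median level was 2449 in the core and 1886 in the cap, a ratio of 1.30, and 1.29 without rpn-6.2. The distributions overlapped widely: 8 of the 14 core genes and 8 of the 19 cap genes were at or above the median of the 32 genes without rpn-6.2. By the mean count with no length the order turned, with a median of 2145 in the core and 2903 in the cap. Across the 33 genes the mean count rose with exon length (Spearman rho 0.53) and the level fell with it (rho -0.47, and -0.45 without rpn-6.2). These correlations are descriptions across genes of the same libraries, which are not independent replicates, and the second shares exon length between its 2 axes.

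**Figure D3:**
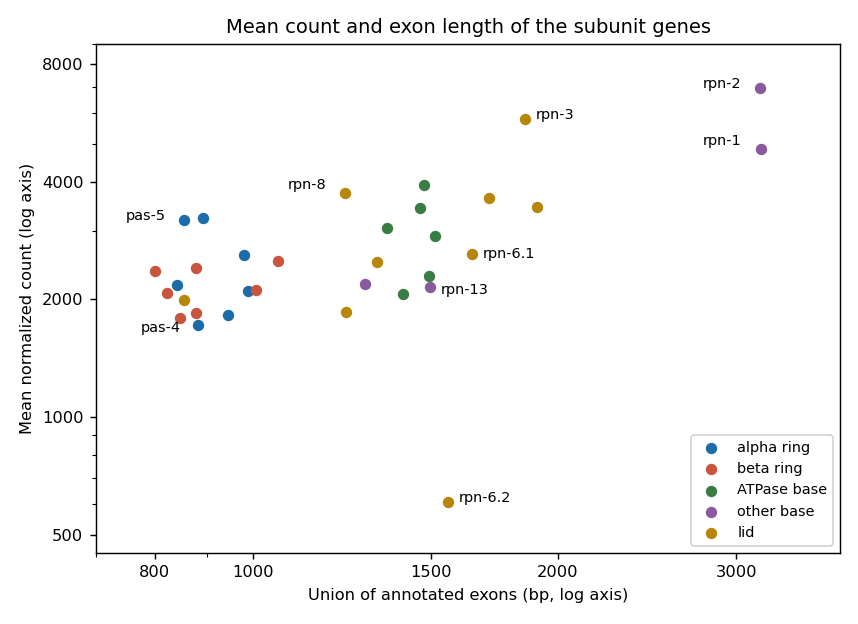
Mean normalized count (y axis, log axis) against the union of annotated exons in bp (x axis, log axis) for the 33 subunit genes, coloured by sub-complex. Long genes such as rpn-2 (6960) and rpn-1 (4856) have high counts, whereas rpn-6.2 (607) lies far below genes of its length.

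The proteasome was set beside the CCT chaperonin and the cytosolic ribosome, which are also complexes of many subunits with mostly 1 gene each. CCT folds actin and tubulin among other proteins. The median proteasome level was 0.571 times that of the 8 CCT genes (2130 against 3730). Of the CCT genes, 4 lay within the range of the proteasome genes and 4 above it, with 1740 for cct-7 the lowest and 5137 for cct-5 the highest. The ratio of the upper to the lower quartile was 1.43 in the proteasome, 2.00 in CCT and 1.54 in the ribosomal protein genes. The median of the 78 ribosomal protein genes was 38865, so that the median proteasome level was 0.0548 times the ribosomal one. These 78 genes were taken by symbols that start with rps- or rpl-, and the role of each in the ribosome was not checked. Of these genes, rpl-42 at 119.9, rpl-24.2 at 2184 and rpl-37 at 3196 were the only ones below pas-5, the highest proteasome gene.

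The levels of other genes that feed or regulate the proteasome were far more scattered. Of 19 such genes, 7 lay within the range of the 32 subunit genes without rpn-6.2, 9 below it and 3 above it. Highest were the ubiquitin genes themselves, ubq-2 at 47795, whose product is ubiquitin fused to a ribosomal protein, and ubq-1, which encodes polyubiquitin, at 10472. The ubiquitin-activating enzyme gene uba-1 stood at 2620. The small lid subunit gene dss-1, which the naming rule does not take, stood at 1823, within the range of the lid.

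Among genes for proteins that bind or serve the cap, rad-23, usp-14 and ubh-4 lay near the lower end of the subunit range. ubql-1 lay just below that range. The shuttle factor gene rad-23 stood at 1718, the cap-bound deubiquitinase genes usp-14 at 1632 and ubh-4 at 1606, and the ubiquilin gene ubql-1 at 1401. aip-1, the AN1-type zinc finger gene, was above the range at 4480. The segregase CDC-48, which extracts ubiquitinated proteins from membranes and complexes, is encoded by 2 genes of like level, cdc-48.1 at 2811 and cdc-48.2 at 3080, a ratio of 0.913 (0.890 to 0.936), and 0.991 per kb of coding sequence. Its cofactors were lower, with ufd-1 at 1332, npl-4.1 at 602 and npl-4.2 at 550. The annotated coding lengths of the npl-4 genes are the same, 1587 bp, and per kb of coding sequence their ratio was 1.00. These paralogs are subject to the same doubt about reads that match both.

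Genes that regulate proteasome gene expression lay below the 32 subunit genes other than rpn-6.2. skn-1, the transcription factor that in C. elegans activates proteasome genes when the proteasome is impaired, had a level of 679. The genes needed to process its membrane-bound form stood at 521 for the ER ubiquitin ligase gene sel-11, at 282 for the peptide N-glycanase gene png-1, and at 830 for the aspartic protease gene ddi-1. sel-1, an adaptor in degradation from the ER, stood at 882.

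**Figure D4:**
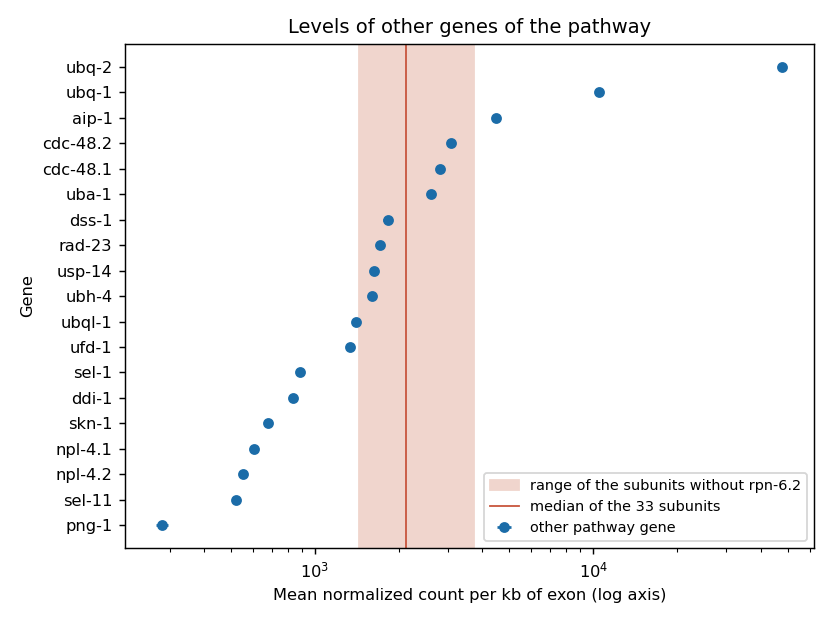
Level of each of the 19 other pathway genes (x axis, mean normalized count per kb of exon, log axis; 1 gene per row; bars are exact 95% Poisson intervals, mostly within the points), with the range of the subunits without rpn-6.2 (1440 to 3724) shaded and the median of the 33 (2130) as a line. The 3 genes ubq-2, ubq-1 and aip-1 lie right of the band and 9 genes, down to png-1 at 282, lie left of it.

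The proteasome genes are spread over the autosomes. Of 33 genes, 10 are on chromosome I, 7 on II, 8 on III, 3 on IV, 5 on V and 0 on X. Of the protein-coding background 13.9% is on X, and of the 761 protein-coding genes whose level lay within 1440 to 3724, the range of the 32 subunit genes, 77 (10.1%) are on X. None of the 8 CCT genes and 2 of the 78 ribosomal protein genes are on X. Chromosome I held 30.3% of the proteasome genes against 15.2% of the background, 19.6% of the 761 genes of like level and 29.5% of the ribosomal protein genes.

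Of the 33 subunit genes, 25 have a single annotated transcript and none more than 2. The longest transcript of a gene has 2 to 7 exons, with a median of 4. These numbers were not set beside those of the background genes. Some C. elegans genes sit in operons, in which one promoter serves several genes of the same strand. Neighbours were sought among protein-coding genes that do not overlap the gene itself. Such a neighbour ended on the same strand within 500 bp upstream of 8 of the 33 genes (24.2%). The share was 18.6% of 17560 background genes and 17.9% of genes of like level. These 8 were pbs-3 (22 bp downstream of ulp-2), rpn-6.2 (54 bp from F59B2.15), pas-1 (106 bp from rpoa-12, a polymerase subunit gene), pbs-5 (110 bp from K05C4.2), rpn-10 (118 bp from mrpl-9, a mitochondrial ribosomal protein gene), rpn-11 (224 bp), rpn-13 (462 bp) and rpt-3 (478 bp). A short gap is a measure of position and does not show that a gene is in an operon.

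Some neighbours on one strand were at other levels. The pairs named here are examples and not a count over all subunit genes. pbs-2, at 2102, ends 420 bp before the alpha tubulin gene tba-2 at 7847, and pas-5, at 3724, ends 593 bp before the ribosomal protein gene rla-0 at 55766. pbs-5, at 2372, lies 110 bp after K05C4.2, whose level of 1925 was closer. Exons of 22 subunit genes overlap no other annotated exon, those of 10 overlap an exon of the opposite strand, and those of pbs-7 overlap K07A12.5 on the same strand. The libraries were stranded, but whether the counting used the strand is not given in the sources used here. Reads in the overlaps of these 11 genes may thus have been counted for either gene or left out. Their levels could be too high or too low for that reason, which was not tested. pbs-4, rpt-2, rpn-11 and rpt-6 are among these 11 genes.

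Markers of the tissues of a whole L4 animal were found at a wide range of levels. Body wall muscle had unc-54 at 15690 and myo-3 at 3052, the pharynx myo-2 at 1033, the epidermis rol-6 at 1766 and dpy-7 at 176, and the intestine ges-1 at 468 and elt-2 at 186. The germ line had pgl-1 at 2781, gld-1 at 1861 and glp-1 at 737, sperm had msp-19 at 6275 and spe-11 at 765, and neurons had rab-3 at 76.9 and unc-119 at 72.9. None of the 14 tissue markers was at 0. The share of each tissue in the proteasome levels was not tested. The heat shock genes hsp-16.41 at 50543, hsp-16.2 at 43109 and hsp-70 at 31942, in a mean over HS and CTRL libraries together, lay above every proteasome gene.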

How the data were processed

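Total RNA of whole N2 animals at L4 was depleted of ribosomal RNA with Ribo-Zero Gold and made into stranded TruSeq libraries, read as paired ends of 100 bp. The authors trimmed reads with fastq-mcf, aligned them with STAR to WS235 (WBcel235), counted them with FeatureCounts on Ensembl release 88 genes and normalized them in DESeq2. Versions, and the settings for strand and for reads with several matches, are not given in the sources used here.

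The deposited table gives, for 31180 genes, a signal that the authors made by averaging the normalized counts of the 6 libraries (baseMean). It also holds 5 columns of the authors' own HS against CTRL comparison (fold change, standard error, test statistic, p-values), which were not used. The fit of HS against CTRL planned for the case of counts could not be made, since the mean is the one other measure. The mean does not give the total reads of any library. All 10090 genes with a mean below 2 were sums (tolerance 1e-09) of whole multiples of 6 steps, 0.114 to 0.311 per read, taken as what 1 read of each library adds to the mean. These steps bound the reads (or read pairs) behind a mean. Unlike steps mean unlike size factors, so the libraries differed in depth by that measure. Which step belongs to which library is not given. The step finder was tested on simulated data.

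Gene symbols, exons and positions came from the name table and Ensembl release 115 for WBcel235, in which 28726 genes had a symbol and 30963 a position; 18768 were protein-coding. The background was the 17574 with a mean of at least 1. Sequences were not used here. All members are given, with full values for the highest and lowest of each sub-complex, the catalytic beta genes and the rpn-6 pair; rpn-11 was added after its values were seen. Members, pathway, marker and comparison lists were chosen with earlier results of these data known. Alternatives were gene length, background, a count minimum of 100, overlaps and the lowest member. Tables were handled with pandas 2.3.3 and numpy 2.4.6 in Python 3.11.15, intervals came from scipy 1.17.1, and plots were drawn with matplotlib 3.10.9.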

Additional observations from a re-analysis of the deposited data

How the results depend on the processing

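Of 40 alternative values, 27 were classed as the same as the main value and 13 as moved. The class of the same is not limited to moves within the counting error. It holds the median's percentile per kb of coding sequence, 94.73, and that among all listed protein-coding genes, 95.4. Per kb of coding sequence the median proteasome level was 2547, against 2130 per kb of exon, and the mean count with no length had a median of 2411. The median's percentile was 93.32 with no length and 91.24 among protein-coding genes with a mean of at least 100, against 95.08. Per kb of coding sequence the highest over the lowest level was 1.642 in the beta ring (1.409 per kb of exon) and 1.456 in the other base (1.526). Without its lowest gene it was 1.732 in the ATPase base (1.809), 1.435 in the other base and 2.069 in the lid (7.994). The median proteasome level over that of CCT and of ribosomal protein genes was 0.5893 and 0.05679 per kb of coding sequence (0.5709 and 0.0548 per kb of exon). The median of the core over that of the cap was 0.7389 with no length, against 1.299 per kb of exon, which turned the order. rpn-6.1 over rpn-6.2 was 4.307 with no length, against 4.074. Dropping rpn-6.2 was an alternative chosen after seeing the data. The proteasome median, its ratios to CCT and ribosomal protein genes, and the core over the cap were then classed as the same. The highest over the lowest level of all subunit genes did change, from 9.55 to 2.59. The SD of their log2 levels changed from 0.57 to 0.37. No paired analysis was possible because no values of single libraries were used. For the same reason no replicate was left out and the fit of HS against CTRL was not run; the promoter motif search was not run either. The counting intervals cover no spread between animals or libraries.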
